A study of Mus musculus with 6 samples.

Results

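The interferon-induced gene families were followed in the inguinal adipose tissue (iAT) of young mice with and without the neuropeptide FF receptor gene *Npffr1*. Members were chosen by name alone, as all listed genes whose symbol starts with *Ifit* (*Ifitm* included), *Oas*, *Gbp*, *Irgm* or *Iigp*, all symbols of *Ifi* followed by a digit, and *Isg15*, *Isg20*, *Mx1*, *Mx2*, *Rsad2*, *Usp18* and *Bst2*. This gave 56 of the 19831 genes in the authors' table. Of these, 41 were placed by name on the side of the type I interferon families, and 15 are the GTPase genes *Gbp*, *Irgm* and *Iigp*. The placing by name does not tell which interferon, if any, induces a given member.

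Type I interferons (interferon alpha and beta) signal through the receptor chains *Ifnar1* and *Ifnar2* and the kinases *Jak1* and *Tyk2* to a complex that includes *Stat2* and *Irf9* and binds interferon-stimulated response elements. Type II interferon (interferon gamma) signals through *Ifngr1* and *Ifngr2*, *Jak1* and *Jak2*, and many of its targets carry gamma-activated sites. The *Ifit*, *Oas*, *Mx* and *Ifitm* proteins block viral RNA, viral replication or viral entry. The guanylate-binding proteins (*Gbp*) and the immunity-related GTPases (*Irgm*, *Iigp*) attack the vacuoles of intracellular pathogens and are classical targets of interferon gamma. Many members answer to both interferons.

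The groups were 3 wild-type and 3 Npffr1-KO samples, in which *Npffr1* was ablated. Tissue of both groups was collected at postnatal day 6 from animals kept under specific pathogen-free conditions. The labels do not name the strain, sex or litter of these animals, the way the gene was deleted, or whether animals were pooled. Nothing states that the 3 samples of a group came from separate animals, so the spread between them may be technical.

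The table holds a single value per gene and genotype, in normalized counts. These values add up to 23137343 in wild-type and 23640005 in Npffr1-KO. Whole reads of each of the 6 libraries were worked out from these values for lower genes, and a library is named here by a letter, A, B and C for wild-type and D, E and F for Npffr1-KO, since none could be tied to a sample number. The size factors of the libraries lay between 0.9165 and 1.0377. *Npffr1* had 1 read in A, 5 reads in C and 0 reads in B, D, E and F, where a count of 0 allows up to 3 reads. Transcripts of adipocytes were abundant, with 37027 normalized counts of *Adipoq* in wild-type and 35360 in Npffr1-KO.

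Of the 56 members, 36 had reads per library, 30 of them in the type I families and 6 in the *Gbp*, *Irgm* and *Iigp* group. The other 20 were too high for this and have the authors' 2 values only. Of the 36, 6 lay below a mean of 10 normalized counts, and 9 lay above a mean of 220, the highest mean to which reads were recovered for at least 99% of genes. The remaining 21 members were tested with all 4600 such genes.

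The upstream sequences of members on both sides of the contrast were searched for the letters of interferon-stimulated response elements and gamma-activated sites. Whether a match acts on its gene was not tested. RefSeq promoters of GRCm38.p6, 250 bases before to 50 bases after the start, were at hand for 37 members. The core of the interferon-stimulated response element was searched on both strands as GAAANNGAAA, and the gamma-activated site as TTCNNNGAA. The response element core occurred in 23 of the 37 members, 62.2%, against 3.99% of the 27025 genes of the promoter table. It was present in 16 of 30 type I members and in 7 of 7 members of the *Gbp* and *Irgm* group, namely *Gbp2*, *Gbp2b*, *Gbp3*, *Gbp5*, *Gbp7*, *Irgm1* and *Irgm2*. No promoter was at hand for *Gbp4*, *Gbp6*, *Gbp8*, *Gbp9*, *Gbp10*, *Gbp11*, *Iigp1* and *Iigp1b*, so nothing is known here of their motifs. The gamma-activated site occurred in 7 of 30 type I members and in *Gbp5*, *Gbp7* and *Irgm2*, 3 of 7, against 9.55% of all genes. The 200 bases before the start are printed for 6 members, and no annotated exon of GENCODE M21 overlaps them. For *Isg15* and *Gbp2b* the bases after the start open a GENCODE M21 transcript. For *Ifit3*, *Ifit3b*, *Gbp7* and *Irgm2* they do not. They lie at chr4:156200819-156201018 on the minus strand (*Isg15*) and, on the plus strand, at chr19:34583329-34583528 (*Ifit3*), chr19:34607757-34607956 (*Ifit3b*), chr3:142530136-142530335 (*Gbp7*), chr3:142594647-142594846 (*Gbp2b*) and chr11:58214777-58214976 (*Irgm2*). Capitals mark matches to either motif.
*Isg15*: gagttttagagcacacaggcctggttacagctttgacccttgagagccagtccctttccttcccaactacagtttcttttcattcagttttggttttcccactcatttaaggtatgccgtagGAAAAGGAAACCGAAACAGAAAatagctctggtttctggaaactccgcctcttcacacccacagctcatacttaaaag
*Ifit3*: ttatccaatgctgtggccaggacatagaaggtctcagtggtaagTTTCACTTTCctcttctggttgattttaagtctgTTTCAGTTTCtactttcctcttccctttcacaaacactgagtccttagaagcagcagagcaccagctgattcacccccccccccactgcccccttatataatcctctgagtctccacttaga
*Ifit3b*: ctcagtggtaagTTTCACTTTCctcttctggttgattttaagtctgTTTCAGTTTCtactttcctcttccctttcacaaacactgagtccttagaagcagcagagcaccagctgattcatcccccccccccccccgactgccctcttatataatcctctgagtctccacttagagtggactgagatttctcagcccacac
*Gbp7*: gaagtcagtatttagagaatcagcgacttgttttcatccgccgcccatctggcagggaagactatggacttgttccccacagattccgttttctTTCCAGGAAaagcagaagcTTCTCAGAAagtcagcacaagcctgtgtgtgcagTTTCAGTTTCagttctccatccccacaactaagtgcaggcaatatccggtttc
*Gbp2b*: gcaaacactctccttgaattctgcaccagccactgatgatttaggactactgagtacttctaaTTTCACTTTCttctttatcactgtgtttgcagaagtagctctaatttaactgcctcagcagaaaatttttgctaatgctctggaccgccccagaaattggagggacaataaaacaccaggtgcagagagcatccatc
*Irgm2*: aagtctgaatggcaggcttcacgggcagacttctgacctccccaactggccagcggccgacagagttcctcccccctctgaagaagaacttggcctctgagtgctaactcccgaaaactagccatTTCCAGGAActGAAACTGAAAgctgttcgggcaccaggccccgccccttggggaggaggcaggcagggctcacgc
The *Isg15* sequence held 3 overlapping copies of the response element core, and *Ifit3* and its neighbour *Ifit3b* held the same 2 matches on the other strand. *Gbp7* held 1 response element core and 2 gamma-activated sites. In *Irgm2* the gamma-activated site (-75 to -67 from the start) stood shortly before the response element core (-64 to -55). *Gbp2b* had a response element core alone. A match is a description of these letters, and the promoters of *Ifitm10*, *Ifitm1*, *Ifitm5*, *Ifitm7*, *Ifi30*, *Ifi44*, *Ifi47*, *Oas1f*, *Oasl1* and *Oasl2* held neither.

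The families differed widely in level. Per kilobase of the length listed by the authors, the 2 highest members in wild-type were *Ifitm2* with 8752 and *Ifitm3* with 7207 normalized counts per kb, both restriction factors of virus entry. *Ifitm2* stood at the 99.1 percentile of all listed genes, and *Ifi27*, which followed with 4321, at the 98.3 percentile. Next were *Ifi30*, a lysosomal thiol reductase of antigen processing, with 3082, *Ifi27l2a* with 2071, and *Bst2* (tetherin), which holds budding virions at the cell surface, with 1654 normalized counts per kb. The highest GTPase was *Gbp2* with 647 normalized counts per kb, the eighth of the 56 members, and it was the only GTPase among the 10 highest. *Irgm1*, with 478, came next among the GTPases. Between these lay *Ifi203* with 638 and *Ifi35* with 508 normalized counts per kb. No spread is given at these levels, so it cannot be told whether neighbours in this order, such as *Gbp2* and *Ifi203*, differ.

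**Figure D1:**
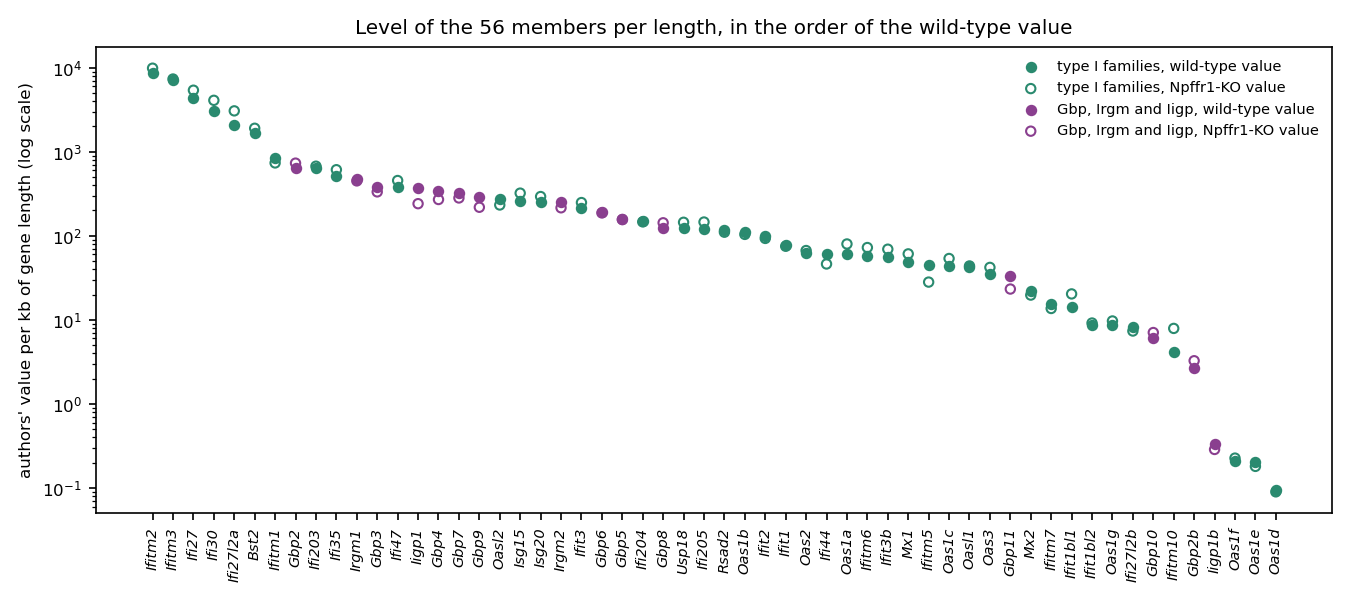
Level of the 56 members, as the authors' value divided by gene length (normalized counts per kb, log axis), in the order of the wild-type value. Filled circles are the wild-type values and open circles the Npffr1-KO values; the type I families reach from 8752 for *Ifitm2* to 0.0941 for *Oas1d*, and most GTPases sit in the upper middle.

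At the other end of the order, 4 members had at most 3 reads in all 6 libraries. *Oas1d* had 1 read, in A. *Oas1f* had 2 reads, in D. *Oas1e* had 1 read each in B and C, and *Iigp1b* had 2 reads in B and 1 in C. *Gbp2b* and *Ifi27l2b*, with means of 8.35 and 8.56 normalized counts, were also below the minimum of the test.

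The *Ifit* genes, whose products bind viral RNA lacking host caps, lie side by side on 1 chromosome. *Ifit1* had 183, 248 and 184 normalized reads in wild-type and 181, 213 and 200 in Npffr1-KO. The groups overlapped, and the log2 difference was -0.04 ± 0.17 (SE). *Ifit3b* had 109, 121 and 108 reads in wild-type and 145, 141 and 134 in Npffr1-KO, so that all Npffr1-KO libraries were above all wild-type libraries. The log2 difference of *Ifit3b* was 0.31 ± 0.19 (SE), with an adjusted p of 0.48 in limma. Its neighbour *Ifit3* had 454, 477 and 337 reads in wild-type and 492, 432 and 570 in Npffr1-KO, which overlapped. Of the 31-base words of *Ifit3* transcripts, 61.8% also stand in *Ifit3b*, so that the division of reads between them is uncertain. Their sum was 536 ± 79.9 in wild-type and 638 ± 65.3 in Npffr1-KO (SD, n = 3).

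*Ifit1bl1* had the largest log2 difference of the family. It had 34.8, 33.3 and 24.8 reads in wild-type and 51.1, 31.3 and 58.9 in Npffr1-KO, with the lowest Npffr1-KO library inside the wild-type range. The log2 difference was 0.56 ± 0.31 (SE), with an adjusted p of 0.44 in limma. *Ifit1bl2* was given as 29.2 in wild-type and 30.8 in Npffr1-KO, and *Ifit2* had 397 and 368, both with overlapping libraries. Summed over all 6 *Ifit* genes the libraries held 1184, 1347 and 1063 reads in wild-type and 1305, 1236 and 1302 in Npffr1-KO. The sums differed by less than the spread of the wild-type libraries.

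The *Oas* genes encode the oligoadenylate synthetases and their relatives, which as enzymes sense double-stranded RNA and activate RNase L. *Oas3* had 184, 130 and 177 reads in wild-type and 188, 192 and 218 in Npffr1-KO. *Oas1c* had 100, 103 and 92.3 reads in wild-type and 142, 117 and 111 in Npffr1-KO. In both genes every Npffr1-KO library exceeded every wild-type library, by a margin of a few reads in *Oas3*. Their log2 differences were 0.30 ± 0.18 and 0.32 ± 0.21 (SE), with adjusted p of 0.48 and 0.51 in limma.

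*Oas1a*, the member with the largest log2 difference of the family, had 91.7, 129 and 116 reads in wild-type and 142, 114 and 202 in Npffr1-KO. Library F stood well above the others and library E lay inside the wild-type range. The log2 difference was 0.41 ± 0.24 (SE), with an adjusted p of 0.45 in limma, and it was 0.19 without library F and 0.27 without A. *Oas1g*, which shares 54.6% of its words with *Oas1a*, had 21.2, 11.7 and 18.9 reads in wild-type and 22.2, 17.2 and 20.7 in Npffr1-KO. *Oas1b* was at 228, 193 and 196 against 202, 195 and 178 reads, with a log2 difference of -0.10 ± 0.15 (SE) that was -0.02 without A and -0.04 without F. The highest member, *Oasl2*, was given as 849 (wild-type) and 730 (Npffr1-KO) normalized counts. *Oas2* and *Oasl1* overlapped between the groups. *Oasl1* had a log2 difference of 0.04, and *Oas2*, which entered only a fit extended to a mean of 300, one of 0.09 there. Leaving out *Oasl2*, the *Oas* genes summed to 991, 874 and 931 reads in wild-type and 1034, 979 and 1105 in Npffr1-KO, with library E below library A. With *Oasl2* the authors' values of the family summed to 1784 in wild-type and 1766 in Npffr1-KO, so that the direction turned with that gene.

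Among the *Ifitm* genes, *Ifitm10* gave the largest difference of all tested members. It had 7.73, 11.7 and 15.9 normalized reads in wild-type, 11.8 ± 4.08 (SD, n = 3), and 27.9, 27.2 and 26.2 in Npffr1-KO, 27.1 ± 0.886 (SD, n = 3). The 3 Npffr1-KO libraries were close to each other and clear of the wild-type range. The mean was 2.30-fold higher in Npffr1-KO, and the log2 difference was 1.19 ± 0.40 (SE, 95% interval 0.34 to 2.04). It did not pass the threshold, with an adjusted p of 0.18 in limma. It was the only tested member with an unadjusted p under 0.05, a share of 1 in 21, against 14.7% of all genes tested.

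*Ifitm5*, known from bone-forming cells, went the other way. It had 53.1, 12.7 and 40.7 reads in wild-type and 15.4, 30.3 and 8.73 in Npffr1-KO. Both groups were widely spread and overlapped, with a log2 difference of -0.88 ± 0.53 (SE) and an adjusted p of 0.47 in limma. The difference lay between -1.47 without library B and -0.47 without F. *Ifitm6* had 26.1, 19.6 and 43.7 reads against 34.7, 33.3 and 52.4, and *Ifitm7* had 20.3, 15.7 and 5.96 against 15.4, 13.1 and 5.46, both with overlap. The high members *Ifitm2*, *Ifitm3* and *Ifitm1* were given as 5654 and 6372, 4670 and 4750, and 585 and 514 normalized counts, each time wild-type first. In *Ifitm2*, 55.5% of the 31-base words also stand in transcripts of other genes.

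*Isg15*, the ubiquitin-like protein conjugated to other proteins after interferon, had 213, 209 and 156 reads in wild-type and 254, 202 and 277 in Npffr1-KO. Library E lay below A and B, and the log2 difference was 0.34 ± 0.18 (SE), with an adjusted p of 0.39 in limma. Without library C it was 0.20. *Usp18*, the protease that removes *Isg15* and dampens the type I receptor, had 214, 230 and 206 reads in wild-type and 275, 247 and 252 in Npffr1-KO, with no overlap. Such an order occurred in 8.24% of the 4600 genes of the main test, which *Usp18* was too high to enter. In a fit extended to a mean of 300 the log2 difference of *Usp18* was 0.25 ± 0.14 (SE), with an adjusted p of 0.42 in limma. *Isg20*, an RNA exonuclease, had 242, 292 and 210 reads against 249, 272 and 340 and overlapped. *Rsad2* (viperin) had 499, 497 and 327 reads against 411, 403 and 438, with all Npffr1-KO libraries between the wild-type extremes.

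The *Mx* genes encode dynamin-like GTPases that block virus replication. *Mx1* had 155, 93.0 and 149 reads in wild-type and 173, 181 and 148 in Npffr1-KO, and *Mx2* had 51.2, 61.7 and 48.6 against 55.9, 49.5 and 37.1. They lay on opposite sides of 0, with log2 differences of 0.37 ± 0.22 and -0.19 ± 0.27 (SE), and neither passed (adjusted p of 0.46 and 0.80 in limma). Without library B the difference of *Mx1* was 0.13, and that of *Mx2* was -0.09 without B and -0.03 without F. *Bst2* was given as 1433 (wild-type) and 1647 (Npffr1-KO) normalized counts.

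Of the *Ifi* genes, *Ifi205* and *Ifi44* were tested. *Ifi205*, a nuclear protein of the family that also holds DNA sensors, had 137, 178 and 272 reads in wild-type and 248, 228 and 234 in Npffr1-KO. Its wild-type libraries spread on both sides of the tight Npffr1-KO values, and the log2 difference was 0.33 ± 0.21 (SE). It was 0.10 without library A and 0.59 without library C. *Ifi44* had 207, 194 and 139 reads in wild-type and 160, 108 and 132 in Npffr1-KO, with a log2 difference of -0.43 ± 0.21 (SE) and an adjusted p of 0.38 in limma. *Ifi204* was at 261, 431 and 342 reads against 336, 289 and 386, a full overlap. The 6 higher *Ifi* genes were all given higher in Npffr1-KO, as were 51.2% of all genes with a mean of at least 10. They ran from *Ifi203* with 2429 and 2561 to *Ifi27l2a* with 961 and 1422 normalized counts, log2 ratios of 0.08 and 0.57. Set against the median of genes of like length, their log2 ratios lay between 0.11 for *Ifi27* and 0.30 for *Ifi27l2a*.

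The GTPase genes had reads for few members. *Gbp11* had 110, 58.7 and 106 reads in wild-type and 51.1, 65.6 and 68.7 in Npffr1-KO. Library B stood inside the Npffr1-KO range, and the log2 difference was -0.52 ± 0.28 (SE, 95% interval -1.13 to 0.09), with an adjusted p of 0.42 in limma. It was -0.81 without library B. *Gbp10* had 30.9, 16.6 and 15.9 reads in wild-type and 46.3, 17.2 and 13.1 in Npffr1-KO. Its highest value came from library D alone, and the log2 difference was 0.12 ± 0.47 (SE). *Gbp10* also shares 80.8% of its words with *Gbp6*.

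*Gbp5*, which promotes inflammasome assembly, had 525, 435 and 483 reads in wild-type and 561, 496 and 357 in Npffr1-KO. *Gbp8* had 374, 264 and 271 reads against 372, 400 and 285. Neither gene separated the groups. *Gbp2b* had 2.90, 4.90 and 12.9 reads in wild-type and 11.6, 9.08 and 8.73 in Npffr1-KO.

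**Figure D2:**
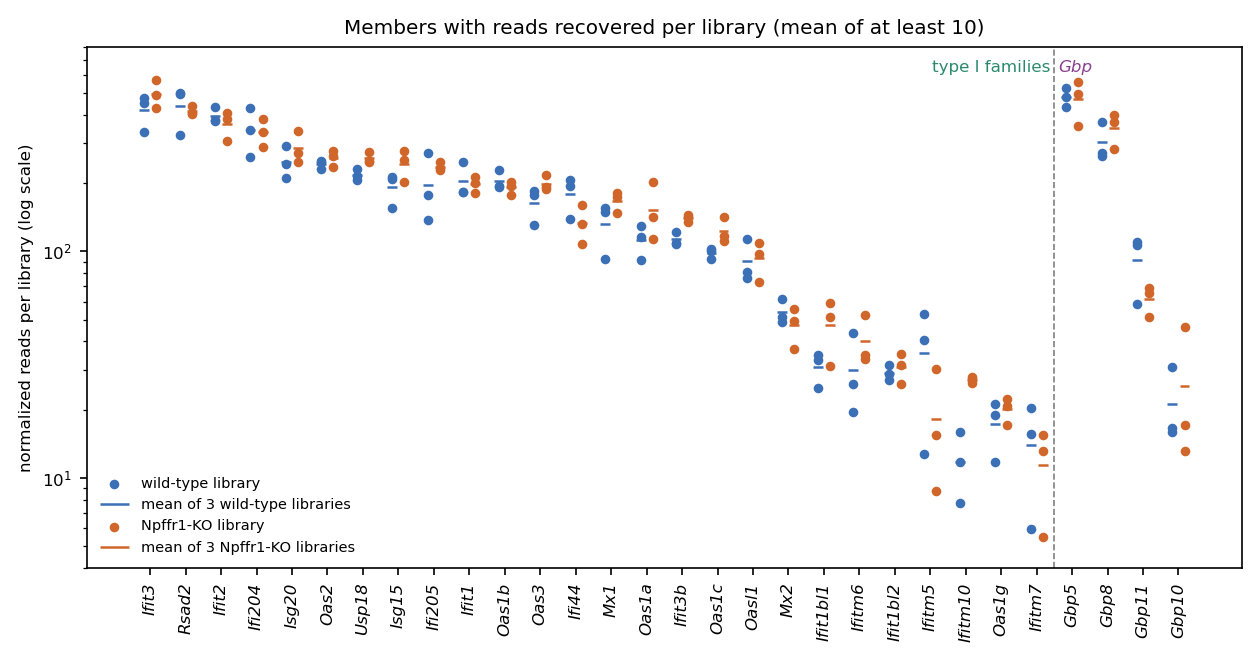
Normalized reads of each library (log axis) for the 30 members with recovered reads and a mean of at least 10. Blue points are the 3 wild-type and orange points the 3 Npffr1-KO libraries, with short lines at the group means; the groups stand clear of each other in *Ifitm10*, *Ifit3b*, *Oas1c*, *Oas3* and *Usp18*. Npffr1-KO is the higher group in each of them. Over all genes tested the groups stand clear in 8.24% with Npffr1-KO higher and in 11.5% with Npffr1-KO lower.

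No member passed the threshold of an adjusted p of 0.05 (0 of 21 in limma, lowest adjusted p 0.18), where 0.609% of all genes tested passed. The 19 tested type I members had a median log2 difference of 0.30, beside a median of -0.05 over all 4600 genes. In the authors' values shorter genes ran higher in Npffr1-KO, and the log2 differences were not set against genes of like length. The 95% intervals reached from 0.33 to 1.28 on either side of the estimate, with a median of 0.54. All Npffr1-KO libraries exceeded all wild-type libraries in 4 of the 21 tested members, *Ifitm10*, *Ifit3b*, *Oas1c* and *Oas3*, and in 8.24% of all genes tested. The reverse order occurred in 0 of 21 members and in 11.5% of all genes tested.

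**Figure D3:**
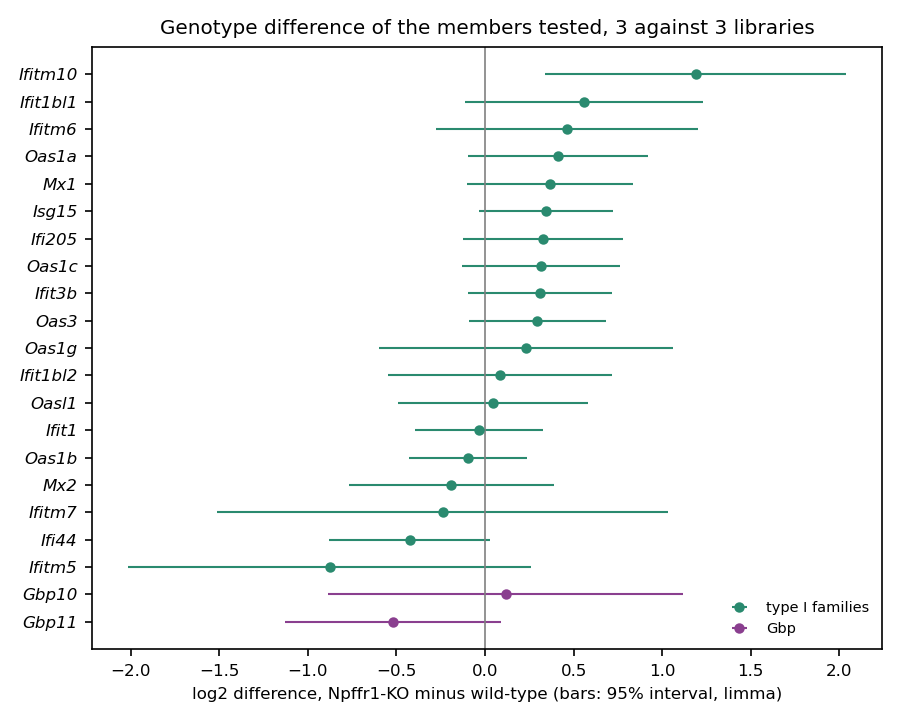
Log2 difference (Npffr1-KO minus wild-type) of the 21 members tested, with 95% intervals from limma over 3 against 3 libraries. Points right of 0 are higher in Npffr1-KO; only the interval of *Ifitm10*, from 0.34 to 2.04, leaves 0 out.

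Over the 30 members with reads and a mean of at least 10, the highest value stood in F for 8 members, in A and D for 7 each, in B for 4, in E for 3 and in C for 1. The lowest value stood in C for 8 members and in F for 7. Library C was lowest in 26.7% of these members and in 11.2% of all genes tested, and highest in 3.33% and 15.1%. Library F was highest in 26.7% of these members and in 16.8% of all genes tested, and lowest in 23.3% and 25.5%. Within a genotype the coefficient of variation of a member had a median of 18.1% in wild-type and 14.8% in Npffr1-KO.

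For the contrast of type I families with *Gbp*, *Irgm* and *Iigp* the authors' values were used, since 9 of 13 GTPases with a mean of at least 10 had no reads per library. These values carry no spread, and their ratios are drawn towards 1 for low genes, as in *Ifitm10*, where the ratio was 1.91. They are a description with no test. Of the 37 type I members with a mean of at least 10, 26 were given higher in Npffr1-KO and 11 lower, with a median log2 ratio of 0.20. Of the 13 GTPases, 3 were given higher and 10 lower, with a median of -0.18. Over all 15309 genes with such a mean 51.2% were higher and the median was 0.01.

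A log2 ratio of at least 0.32 in favour of Npffr1-KO was found for 7 of 37 type I members and 0 of 13 GTPases, beside 12.0% of all genes. The 7 were *Ifitm10* with a log2 ratio of 0.93, *Ifi27l2a* with 0.57, *Ifit1bl1* with 0.51, *Ifi30* and *Oas1a* with 0.41 each, *Ifitm6* with 0.35 and *Isg15* with 0.33. A log2 ratio of the same size in favour of wild-type was found for 2 of 37 type I members, *Ifitm5* and *Ifi44*, and 4 of 13 GTPases, beside 11.6% of all genes. The 4 were *Iigp1*, an effector GTPase of the pathogen vacuole, which went from 1115 normalized counts to 717 in Npffr1-KO, *Gbp11*, *Gbp9* with 1056 and 794, and *Gbp4* with 1527 and 1209. The regulatory *Irgm1* and *Irgm2* were given as 1065 and 1002, and as 888 and 762 normalized counts. The other GTPases lay nearer to each other, with 1789 and 1580 for *Gbp7*, 1003 and 869 for *Gbp3*, 828 and 810 for *Gbp6*, and 1599 and 1808 for *Gbp2*.

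**Figure D4:**
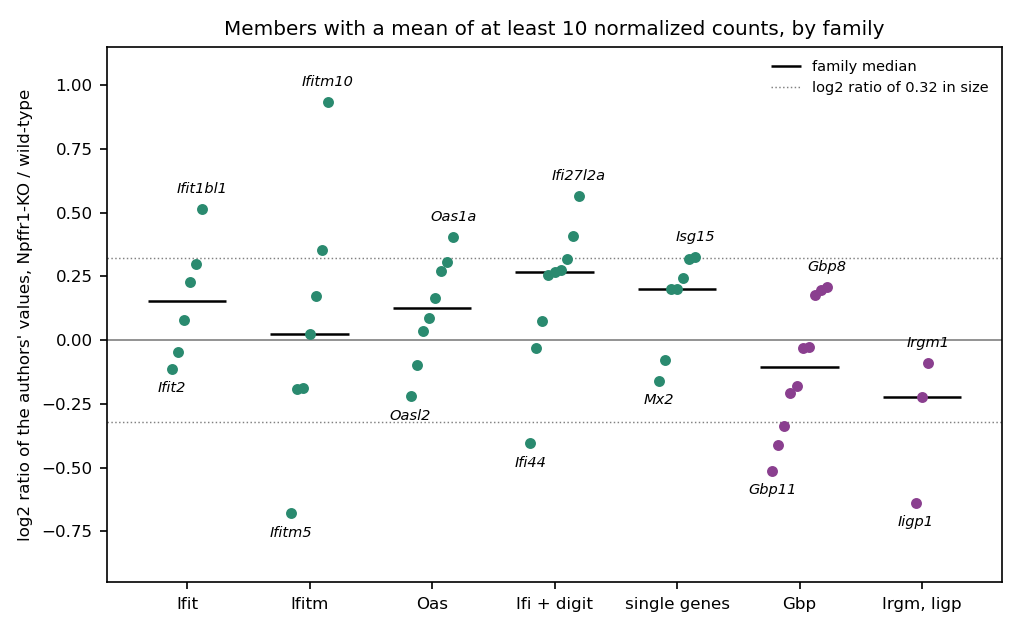
Log2 ratio of the authors' values (Npffr1-KO over wild-type) for the 50 members with a mean of at least 10, by family, with family medians as black lines and log2 ratios of 0.32 in size dotted. Type I families in green have medians from 0.02 (*Ifitm*) to 0.27 (*Ifi* followed by a digit), while *Gbp*, *Irgm* and *Iigp* in purple have medians of -0.11 and -0.22.

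Within the *Gbp* genes, those lying together on chromosome 5 (*Gbp4*, *Gbp6*, *Gbp8*, *Gbp9*, *Gbp10* and *Gbp11*) summed to 3827 in wild-type and to 3253 in Npffr1-KO, a ratio of 0.85. Those on chromosome 3 (*Gbp2*, *Gbp2b*, *Gbp3*, *Gbp5* and *Gbp7*) summed to 4879 and 4737, a ratio of 0.97. All 3 *Gbp* genes past a log2 ratio of 0.32 in size lay on chromosome 5, in favour of wild-type, beside 11.6% of all genes. *Gbp6*, *Gbp8* and *Gbp10* of the same cluster had log2 ratios of -0.03, 0.21 and 0.20. Set against genes of like length, *Gbp4* had -0.27 instead of -0.34. The medians were then -0.12 on chromosome 5 and -0.04 on chromosome 3. This difference between the clusters was not tested. *Ifi47* is itself an immunity-related GTPase by its product, and counted on that side it left the medians at 0.19 for type I members and -0.13 for GTPases. Summed over families, the *Ifi* genes stood at 12952 and 15912 normalized counts, the *Ifitm* genes at 10999 and 11733, the *Oas* genes at 1784 and 1766, the *Ifit* genes at 1201 and 1278, the *Gbp* genes at 8706 and 7990, and *Irgm* and *Iigp* together at 3069 and 2481.

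Gene length moved with these ratios. The median log2 ratio of all genes ran from 0.27 in the shortest of 20 classes of length (median 656 bases) to -0.15 in the longest (8970 bases). Type I members had a median length of 1847 bases and the GTPases one of 2976 bases. When each ratio was set against the median of its own class of length, the median was 0.09 for type I members and -0.15 for the GTPases. Past 0.32 were then 3 type I members higher and 4 lower, and 0 and 3 GTPases, beside 8.20% and 11.6% of all genes. How far length accounts for the contrast was not tested.

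**Figure D5:**
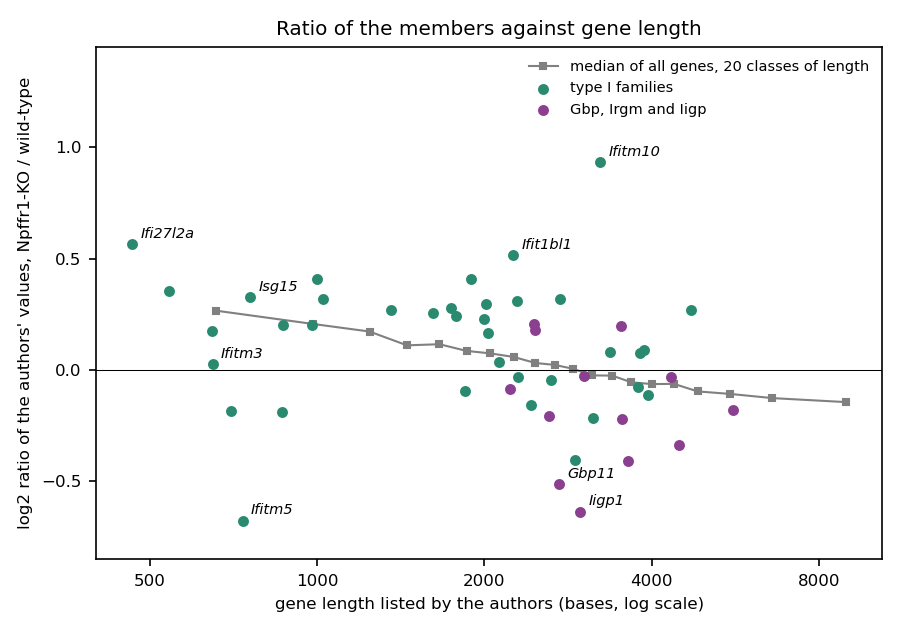
Log2 ratio of the authors' values (Npffr1-KO over wild-type) against gene length in bases (log axis) for the 50 members with a mean of at least 10, with the medians of all genes in 20 classes of length in grey. The grey line runs from 0.27 to -0.15, with *Iigp1* and *Gbp11* below it and *Ifit1bl1* and *Ifitm10* above it. Of the short members, *Isg15* lies 0.06 and *Ifi27l2a* 0.30 above the median of their class of length. *Ifitm1*, *Ifitm3*, *Ifitm5* and *Ifitm7* lie below the median of theirs.

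The interferon pathway itself, a list of 33 genes, was covered by 20 listed genes. Of the ligands, *Ifng* had 5.79, 5.87 and 13.9 normalized reads in wild-type and 19.3, 14.1 and 12.0 in Npffr1-KO, which overlapped, with a log2 difference of 0.84 ± 0.55 (SE) and an adjusted p of 0.51 in limma. *Ifna1* and *Ifna7* had 1 read each in the 6 libraries, and the other type I ligands of the list, *Ifnb1* among them, had no entry among the authors' genes. The receptors were given at similar values, with 3513 and 3491 normalized counts of *Ifnar1* and 4289 and 3929 of *Ifngr1*, wild-type first. *Ifnar2* was given as 2643 and 2919, and *Ifngr2* as 2407 and 2724. The transducer *Stat2* was given as 1301 in wild-type and 1042 in Npffr1-KO. *Jak1* was given as 5246 and 5602, *Jak2* as 1642 and 1616, *Tyk2* as 1355 and 1382, and *Irf9* as 1272 and 1263. *Irf7*, the regulator that amplifies the type I response, was given as 637 and 652, and *Irf1* as 1999 and 2235.

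Both inhibitors of the list were given higher in Npffr1-KO. *Socs1*, which blocks Jak kinases, had 276, 215 and 269 reads in wild-type and 326, 386 and 315 in Npffr1-KO, with no overlap. Such an order occurred in 8.24% of the 4600 genes of the main test, which *Socs1* was too high to enter. In the fit extended to a mean of 300 the log2 difference was 0.43 ± 0.14 (SE), with an adjusted p of 0.16 in limma, and 0.901% of the 5325 genes of that fit passed. *Socs3* was given as 816 and 1360 normalized counts, with no spread. *Tgtp1*, *Tgtp2* and *Igtp*, GTPases of the same kind as *Irgm* and *Iigp* that the choice by name leaves out, were given as 599 and 511, 475 and 503, and 747 and 735 normalized counts. *Ifng* in the main test and *Socs1* in the extended one were the only pathway genes low enough to be tested, and neither passed.

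Markers of other cells of the tissue differed between the groups in the authors' values. All 7 of 7 T and NK cell markers were past a log2 ratio of 0.32 in favour of Npffr1-KO, beside 12.0% of all genes. Their sums were 5449 (wild-type) and 8958 (Npffr1-KO) normalized counts. Of these markers only *Gzma* was tested. *Gzma* had 59.9, 34.3 and 34.7 reads in wild-type and 67.5, 41.4 and 70.9 in Npffr1-KO, which overlapped, with an adjusted p of 0.51 in limma. All 4 of 4 endothelial markers were given lower in Npffr1-KO, 3 of them past 0.32, beside 11.6% of all genes. The endothelial markers summed to 51024 and 40211. The ratios of the markers were not set against genes of like length. The 4 B cell markers summed to 8386 and 9958, the 6 macrophage markers to 18123 and 20837 (*Lyz2* alone 9262 and 11951, with *Csf1r*, *Mrc1* and *Cd163* given lower), the 4 dendritic cell markers to 955 and 1085, the 4 progenitor markers to 9762 and 8773, and the 4 neutrophil markers to 201 and 176. The 6 adipocyte markers summed to 228998 and 253256 (*Fabp4* alone 156285 and 173188, *Lep* 4210 and 8703, with *Adipoq* given lower). The 4 skeletal muscle markers summed to 289 and 609. *Ckm* had 207 reads in library D and at most 6.55 in each other library. *Tnnt3* had 91.7, 88.1 and 78.4 reads in wild-type and 49.1, 290 and 132 in Npffr1-KO, with D lowest and E highest. *Acta1* was given as 171 and 410 normalized counts, and *Myh4* had 1 read in all. In this bulk tissue fewer cells of a type and less RNA per cell cannot be told apart, and the part of these markers in the values of the members was not tested.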

How the data were processed

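RNA of iAT was extracted with TRIzol and sequenced in 3 wild-type and 3 Npffr1-KO samples. The submitters' processing notes name Bowtie2, RSEM and DESeq2 without versions or order, and for the build and annotation nothing is stated (not given in the sources used here). The deposited table lists 19831 genes with gene length and, per genotype, a signal made by the authors from read counts normalized for library size. Its fold changes, p-values and adjusted p-values are the authors' own comparison and were not used, nor was a second table chosen by them. The log2 ratio of the 2 deposited signals is a fitted genotype ratio, and averaging both gives a gene's average normalized count in the 6 libraries.

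Library size factors came from 585 genes with a single read, which fall on 6 values. The genotype of each library was read from the deposited column that is higher in these genes. Combinations of whole reads matching the mean to its printed precision were then searched, all of them for genes with a mean under 50. In higher genes each library was first held between 0.2 and 2.6 times the mean. Their genotype ratio was held near that of the 2 deposited values. If the counts are RSEM estimates, these whole reads are rounded estimates. A single combination was found for all 6601 genes with a mean under 50. For higher genes, combinations were weighted by the fitted spread of the library values and by the 2 deposited values, and 1 was accepted at a weight of at least 0.99. This departs from the exact rule first planned. Of 4644 genes with a mean from 10 to 220, 4600 (99.05%) were recovered. Of these, 3664 had 1 combination within the limits of the search and 936 were taken by weight. Members were searched to a mean of 500. The search and the test were tested on simulated data.

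Groups were compared with limma 3.58.1 in R 4.3.3 (variance trend, two-sided) on log2(normalized reads + 1), with Benjamini-Hochberg adjustment over all 4600 genes and a threshold of 0.05. A log2 difference is on this scale and understates the change of low genes. Ratios of the deposited values were described with no test, for genes with a mean of at least 10 and with a log2 ratio of 0.32 in size as the limit. Shared 31-base words were taken from GENCODE M21 transcripts, which need not be the annotation the authors used. Members with full statistics are those of families with up to 3 members and, in larger families, the highest and the tested ones with the largest and the smallest log2 difference, with paralogs sharing at least 50% of words. Further members are given by their values. The members, lists and tests were chosen with earlier results of these data known. Alternatives were other pseudocounts, minimums, centring, no variance trend, other limits of the mean, another fold, and leaving out each library. One gene of the pathway list is not reported here.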

Additional observations from a re-analysis of the deposited data

How the results depend on the processing

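No member passed the threshold under any of the 14 alternative settings of the limma test (0 of 27 members tested at most), and the lowest adjusted p of a member lay between 0.147 with libraries centred on their median and 0.373 without library B. The number of genes past the threshold, 28, was 1 with no variance trend, 1 among genes up to a mean of 25 and 48 up to a mean of 300, an alternative chosen after seeing the data, and it ranged from 6 to 56 when each library was left out (13 without A, 7 without B, 6 without C, 10 without D, 56 without E and 6 without F). *Ifitm10* stayed higher in Npffr1-KO in all settings that tested it. Differences near 0 changed sign: *Ifit1* was 0.028 with centred libraries and ranged from -0.11 to 0.11 when each library was left out, *Gbp10* from -0.41 (without D) to 0.47 (without F), and *Oas1g* from -0.0075 (without B) to 0.39 (without A). For the authors' values, type I members past a log2 ratio of 0.32 in size, 7 higher and 2 lower, were 4 and 1 at a mean of at least 50, 3 and 4 when centred on genes of like length, 1 and 1 at 1.5-fold, and 2 and 0 above the ceiling of 220, an alternative chosen after seeing the data. The GTPases past it, 4 lower, were 1 at 1.5-fold. The median of type I members exceeded that of GTPases by 0.38, and by 0.24 when centred on genes of like length. The direction was the same under all 7 alternatives. Of these, the 1.5-fold limit and centring on the median ratio of all genes could not change this difference of medians. The cause of these changes was not tested. No paired analysis was possible because the libraries could not be tied to the replicate numbers of the labels. The depth limits members under a mean of 10, and members above 500 have no spread.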
